A study of Arabidopsis thaliana with 12 samples.

Results

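The genes sks15 (AT4G37160) and sks16 (AT2G23630) are 2 of the SKU5-similar genes of Arabidopsis thaliana. They were found by symbol in the platform's probe-to-gene table, where each has 1 probe set of its own. They are 2 of the 13513 probe sets of the array that carry the name of a single gene. Expression was measured in fluorescent cells sorted from root tips of seedlings of 5 days, on 12 single-colour Affymetrix ATH1 arrays. All 4 groups had a wild-type background, and all plants carried J0571 in ecotype C24, an enhancer trap whose GAL4 driver and GFP reporter are active in cortex and endodermis, the ground tissue of the root. In the BLJ, JKD and SCR groups a UAS transgene for the named factor was switched on by GAL4 in those cells, and the control group had J0571 and no such transgene; each of the 4 groups had 3 arrays labelled as biological replicates. BLJ and JKD are zinc finger proteins of the BIRD family and SCR is a GRAS protein, all of them transcription factors of ground tissue patterning. Driven copies were not checked here through their own probe sets, so the groups go by their labels.

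SKU5-similar proteins resemble multicopper oxidases, the protein family of laccases and ascorbate oxidases. SKU5 itself, after which the family is named, is a glycosylated protein attached to the outer face of the plasma membrane by a lipid anchor and also found in the cell wall. Roots of sku5 mutants skew as they grow along a surface, and SKU5 is known for a role in directed root cell expansion. Little is known of sks15 and sks16 beyond their place in this family.

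Both genes were picked for description from their measured values on these same arrays. Their levels and differences in the 6 pairs of groups are therefore given as a description, with standard errors and without a test. The standard errors are those of limma's fit, which draws each probe set's spread toward that of probe sets of similar level. For sks15 and sks16, whose replicates spread widely, they are smaller than the genes' own spread alone would give. Values are intensities after quantile normalization between arrays, unless they are called deposited. Differences between groups are in log2(intensity + 0.702), where the offset is the 20th percentile of the normalized values, a scale that understates the change of dim probe sets. Levels are compared between arrays, for 1 gene at a time except where marker genes are summed or heat shock genes averaged on each array. In the sums the brightest probe sets weigh most. Levels are never compared between the probe sets of different genes.

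The sks15 probe set was highest in the SCR line and lowest in the BLJ line. It read 1.28, 3.33 and 1.71 on the BLJ arrays in replicate order, 3.28, 3.44 and 2.05 with JKD driven, 4.49, 4.63 and 7.08 on the SCR arrays, and 3.06, 4.10 and 2.99 on the control arrays. All 3 SCR arrays lay above every other array, with SCR 3 far above the other SCR arrays. BLJ 1, BLJ 3 and JKD 3 lay below the controls, while BLJ 2, JKD 1 and JKD 2 lay within the control range. The means were 2.11 ± 1.08 in the BLJ line, 2.93 ± 0.76 in JKD, 5.40 ± 1.46 in SCR and 3.39 ± 0.622 in the controls (SD, n = 3 each). The order was thus SCR, control, JKD and BLJ from high to low. In that order SCR and its neighbour, the controls, did not overlap, whereas the controls overlapped with the JKD line and the JKD line with the BLJ line.

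The sks16 probe set gave the same order of groups. It read 0.934, 2.15 and 1.07 on BLJ arrays, 2.22, 2.33 and 1.48 on JKD arrays, 2.87, 3.20 and 4.48 on SCR arrays, and 2.23, 2.89 and 1.63 on the control arrays. SCR 2 and SCR 3 lay above every control array, and SCR 1 lay just under control 2. BLJ 1, BLJ 3 and JKD 3 were again the lowest arrays, all under control 3. The means were 1.38 ± 0.668 in the BLJ line, 2.01 ± 0.46 in JKD, 3.52 ± 0.852 in SCR and 2.25 ± 0.63 in the controls (SD, n = 3 each). No neighbouring groups in this order were free of overlap.

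**Figure D1:**
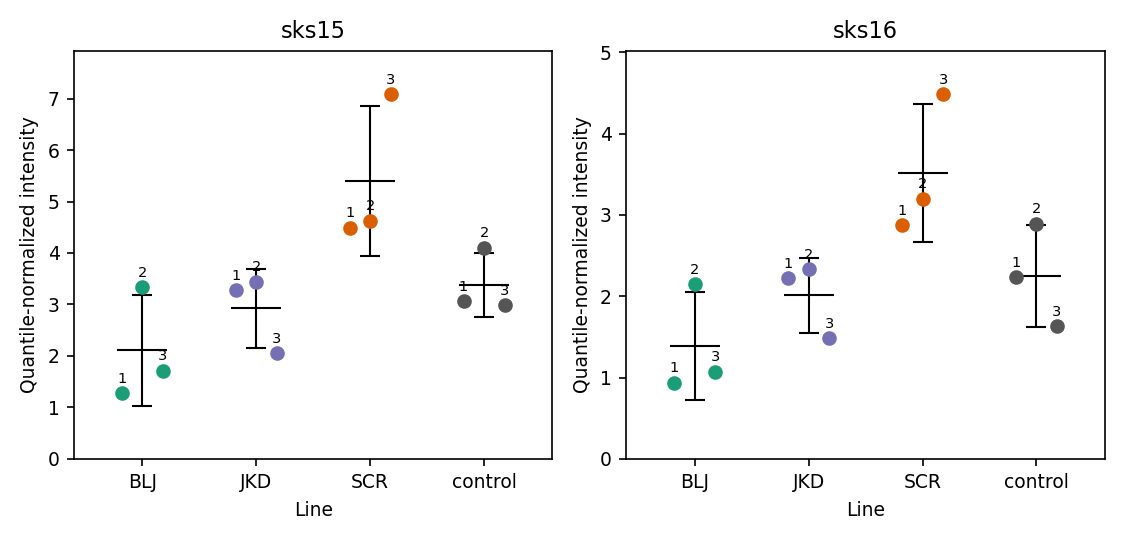
Quantile-normalized intensity of sks15 (left) and sks16 (right) on the arrays of the BLJ, JKD, SCR and control lines; points are arrays with their replicate number, and the bars are means with the SD of 3 arrays. The SCR arrays of sks15 start at 4.49, above the highest control array at 4.10, and the BLJ arrays of both genes spread widely, with replicate 2 high.

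The position of a probe set within its own array needs no scaling between arrays. Quantile normalization keeps that position, so the percentiles restate the normalized values and are no separate check on them. Among the 22746 probe sets that are not controls of the platform, sks15 stood at the 77.6th, 94.1st and 85.6th percentile on BLJ arrays and at the 94th, 94.4th and 88.9th on the JKD arrays. It stood at the 96th, 96.2nd and 98.1st percentile on the SCR arrays and at the 93.4th, 95.6th and 93.2nd on the control arrays. For sks16 the percentiles were 61.3, 89.6 and 69.5 on BLJ arrays and 90, 90.7 and 82.3 on the JKD arrays. They were 92.8, 93.8 and 96 on the SCR arrays and 90.1, 92.9 and 84.6 on the control arrays. Both probe sets passed the filter on low values.

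On the deposited scale the SCR line was again highest. Deposited sks15 intensities averaged 2.24 ± 1.15 in the BLJ line, 3.26 ± 0.956 in JKD, 5.33 ± 2.22 in SCR and 2.62 ± 0.365 in the controls (SD, n = 3 each). Deposited sks16 intensities averaged 1.42 ± 0.739 in the BLJ line, 2.18 ± 0.553 in JKD, 3.48 ± 1.30 in SCR and 1.83 ± 0.403 in the controls. On this scale the JKD means lay above the control means, the opposite of their order after normalization. The deposited log2 values had an SD of 0.878 to 0.975 on the BLJ arrays, 0.818 to 1.01 on the JKD arrays, 0.676 to 0.911 on the SCR arrays and 0.685 to 0.711 on the control arrays, so bright probe sets were stretched upward on most line arrays. SCR 2, at 0.676, was the line array most like the controls in this respect.

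Against the controls, the SCR line was higher for both genes. The log2 difference was 0.56 ± 0.24 (SE) for sks15 and 0.52 ± 0.22 for sks16, the 26th and the 38th highest of the 15922 probe sets tested in that comparison. Such ranks, here and below, carry no weight as a test, since the genes were picked from values of these arrays. Ranking by the size of a difference also favours probe sets whose replicates spread widely, as these do. For sks15 the SCR and control arrays did not overlap, which held for 19.1% of all probe sets tested. For sks16 they overlapped through SCR 1 at 2.87 and control 2 at 2.89, and on the deposited scale they did not. Under all 20 alternatives in processing or in the arrays used, the SCR line stayed higher, by 0.38 to 0.83 for sks15 and by 0.36 to 0.72 for sks16. Several of them, such as dropping the filter or leaving out BLJ or JKD arrays, cannot change this difference and gave 0.56 and 0.52 again.

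Against the controls, the BLJ line was lower on average, and this rested on BLJ 1 and BLJ 3. The log2 difference was -0.60 ± 0.24 (SE) for sks15 and -0.52 ± 0.22 for sks16, the 29th and the 51st lowest of all probe sets tested. Its size depended on the scale, with -0.24 and -0.29 on the deposited values and -0.19 and -0.25 after centring each array on its median. The ranges overlapped for both genes, since BLJ 2 read 3.33 for sks15 and 2.15 for sks16, inside the control ranges. Without BLJ 2 the differences were -0.89 and -0.77, and without BLJ 1 they were -0.38 and -0.37. With BLJ 1, BLJ 3 and control 3 all left out they came to -0.08 and -0.19, a value in which BLJ 2 is the only BLJ array.

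In the JKD line neither gene departed from the controls by more than its standard error. The log2 difference was -0.19 ± 0.24 (SE) for sks15 and -0.11 ± 0.22 for sks16. Its sign depended on the scale, with 0.23 and 0.18 on the deposited values and 0.28 and 0.24 after centring each array on its median. These comparisons with the controls share the same 3 control arrays.

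Between the lines, the widest gap lay between BLJ and SCR. The BLJ minus SCR difference was -1.16 ± 0.24 (SE) for sks15 and -1.04 ± 0.22 for sks16, the 7th and the 12th lowest of 15922. As ratios of mean intensity, the BLJ line had 0.39 times the SCR level of sks15 and 0.393 times that of sks16. No BLJ array reached the SCR range for either gene, where groups without overlap made up 23.7% of all probe sets tested; on the deposited scale sks15 overlapped, because BLJ 2 read 3.55 and SCR 2 read 3.35. Without BLJ 1, BLJ 3 and control 3 the differences came to -0.57 and -0.55.

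The JKD line was also below the SCR line. The JKD minus SCR difference was -0.75 ± 0.24 (SE) for sks15 and -0.63 ± 0.22 for sks16, the 12th and the 19th lowest of 15922. The JKD and SCR arrays did not overlap for either gene after normalization, as for 20.4% of all probe sets tested, and they overlapped for both on the deposited scale. This gap ranged from -0.89 to -0.55 for sks15 and from -0.81 to -0.48 for sks16 over the alternatives. It was -0.75 and -0.63 without BLJ 1, BLJ 3 and control 3 too, since none of these arrays enters it.

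The BLJ and JKD lines overlapped for both genes. The BLJ minus JKD difference was -0.41 ± 0.24 (SE) for sks15 and -0.41 ± 0.22 for sks16. With BLJ 1, BLJ 3 and control 3 left out the sign turned, to 0.17 and 0.09.

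**Figure D2:**
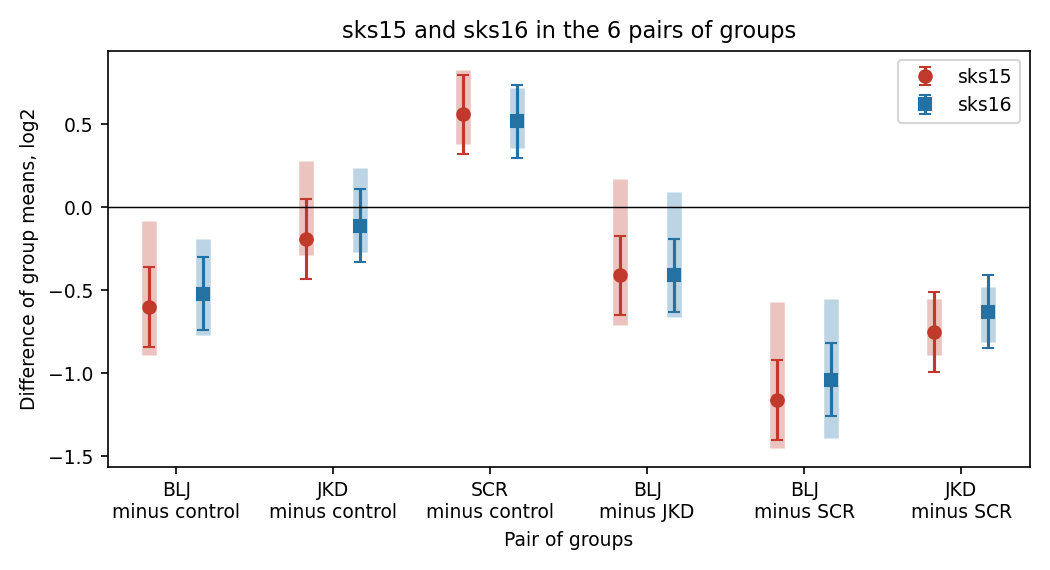
Difference of group means (log2) of sks15 (red circles) and sks16 (blue squares) in the 6 pairs of groups; thin bars are the SE of limma's fit and broad pale bars the range over 20 alternatives. The SCR line stays above each other group under every alternative shown, while JKD minus control and BLJ minus JKD cross 0. Some alternatives, such as leaving out arrays of a group outside the pair, cannot change a given difference.

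The pair moved together from array to array and not only from group to group. Over the 12 arrays the log2 values of sks15 and sks16 had Pearson's r = 0.984 and Spearman's rho = 0.965. Without BLJ 1 and SCR 3, the arrays farthest from the median of sks15, r was 0.968, and after each group's mean had been taken off it was 0.956. Within each of the 4 groups the 3 arrays fell in the same order for both genes, on the normalized and on the deposited scale. BLJ 1, JKD 3, SCR 1 and control 3 were the lowest arrays of their groups for both genes after normalization, and BLJ 2, JKD 2, SCR 3 and control 2 the highest. The 12 arrays share their platform and normalization, so these values describe likeness on these arrays only.

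**Figure D3:**
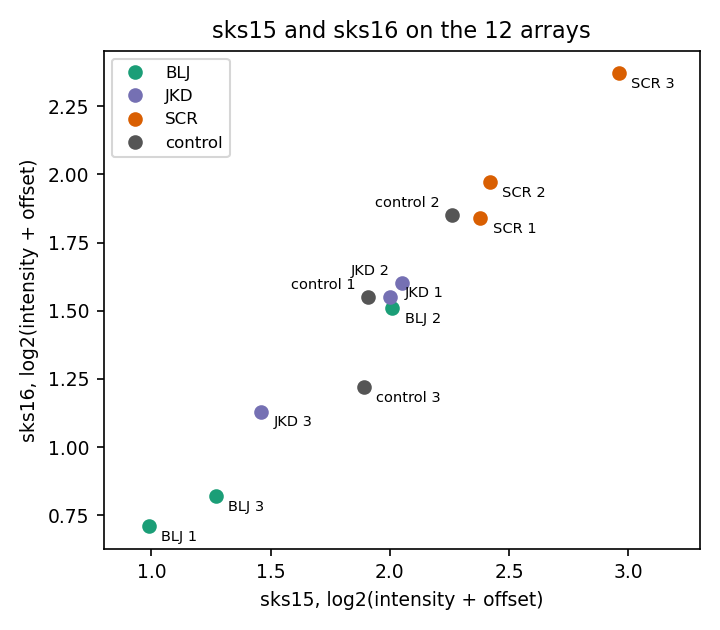
log2(intensity + offset) of sks16 against sks15, 1 point for each of the 12 arrays, coloured by line. The points run along 1 line from BLJ 1 (0.99 and 0.71) to SCR 3 (2.96 and 2.37), with control 3 below it at 1.89 and 1.22.

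Replicate arrays differed far more for these genes than for most. The SD within groups was 0.37 on the log2 scale for sks15 and 0.33 for sks16, against a median of 0.05 over all probe sets tested. This put them at the 99.7th and the 99.4th percentile of that spread. From the lowest to the highest array, sks15 spanned 2.59-fold in the BLJ line, 1.68-fold in the JKD line, 1.58-fold in the SCR line and 1.37-fold in the controls. For sks16 the spans were 2.30-fold, 1.57-fold, 1.56-fold and 1.77-fold in the BLJ, JKD, SCR and control groups.

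Of all other tested probe sets, sks16 was the one most like sks15 over the 12 arrays, and sks15 the one most like sks16, of 15921 ranked by Pearson's r. The next most like sks15 were AT5G10130 (r = 0.98), AT5G60520 (0.978), AT5G35940 (0.966) and AT2G43610 (0.93). The next most like sks16 were AT5G35940 (0.972), AT2G43610 (0.968), AT5G10130 (0.967) and AT2G43600 (0.961). AT5G10130 averaged 3.28 ± 1.90 in the BLJ line, 4.75 ± 1.08 in JKD, 7.26 ± 1.58 in SCR and 5.31 ± 1.18 in the controls (SD, n = 3 each). AT5G60520 averaged 2.33 ± 0.916, 2.89 ± 0.767, 4.92 ± 1.0 and 3.45 ± 0.827 in the BLJ, JKD, SCR and control groups. Both share with the pair the order SCR, control, JKD and BLJ. AT2G43610 averaged 5.27 ± 2.38 in the BLJ line, 8.07 ± 1.65 in JKD, 12.2 ± 1.30 in SCR and 8.0 ± 2.75 in the controls. These genes were chosen for their likeness, so their group levels carry no test.

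With the group means taken off, AT5G10130 was closer to sks15 (r = 0.984) than sks16 was (0.956, rank 2). For sks16, sks15 then stood at rank 6, just behind AT5G35940 (0.958, rank 5). Leaving out BLJ 1 and SCR 3 also put AT5G10130 first for sks15, at 0.973 against 0.968 for sks16, while sks15 stayed first for sks16. On the deposited scale, sks15 and sks16 were again first for each other, at r = 0.988, and without BLJ 1, BLJ 3 and control 3 they were first at 0.992. At the other end of the ranking, AT3G18170 ran opposite to sks15 (r = -0.937) and AT5G24430 opposite to sks16 (r = -0.946). The other low-ranking named probe sets were AT5G24430 (-0.918) and AT1G13930 (-0.909) for sks15, and HEMB1 (-0.942), a porphobilinogen synthase gene of tetrapyrrole synthesis, and AT3G18170 (-0.936) for sks16. AT3G18170 averaged 1.38 ± 0.172 in the BLJ line, 1.29 ± 0.103 in JKD, 1.08 ± 0.0529 in SCR and 1.19 ± 0.0716 in the controls, the reverse order of groups.

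**Figure D4:**
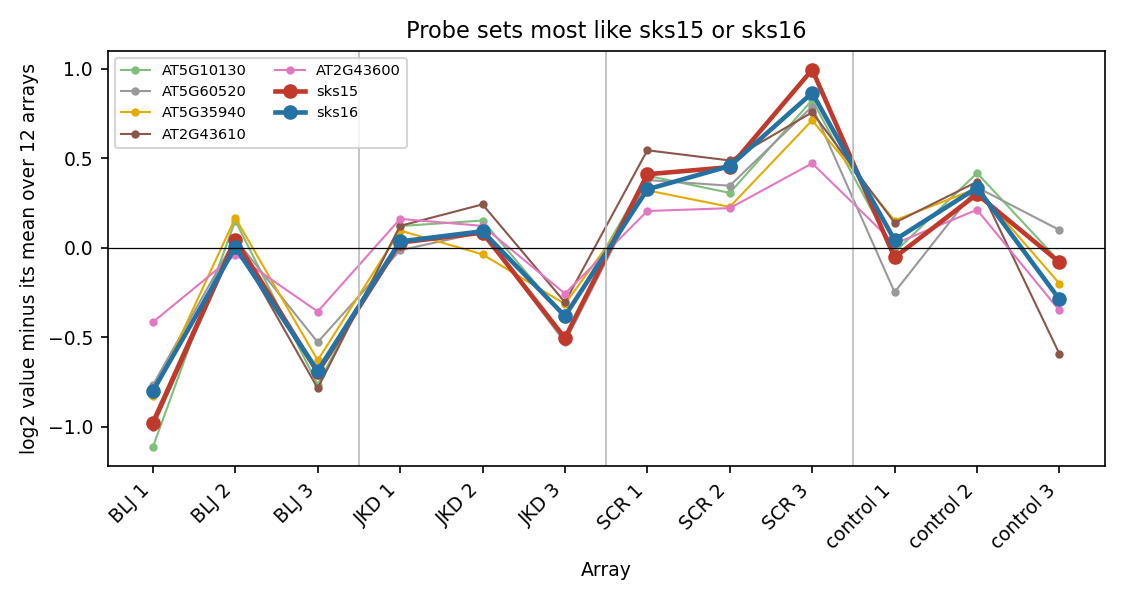
log2 value minus its own mean over the 12 arrays for sks15 and sks16 (thick lines) and the 5 other genes nearest to either, by array, with grey lines between the BLJ, JKD, SCR and control groups. All of them dip on BLJ 1, BLJ 3 and JKD 3 and peak on SCR 3.

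Heat shock genes, which encode chaperones induced by heat and other stress, were high as a mean on the arrays where the pair was low. Their mean log2 level over 6 tested genes of a list of 21, put together with earlier results of these arrays known, was 1.14, 0.88 and 1.41 on BLJ arrays and 0.67, 0.63 and 0.92 on the JKD arrays. It was 0.79, 0.60 and 0.76 on the SCR arrays and 0.67, 0.80 and 1.27 on the control arrays. The 4 arrays highest in this mean, BLJ 3, control 3, BLJ 1 and JKD 3, were the 4 arrays lowest in both sks15 and sks16. For sks15, control 3 at a log2 level of 1.89 was only just below control 1 at 1.91. The heat shock genes were not alike. AT2G29500 averaged 3.22 in the BLJ line, 1.39 in JKD, 1.10 in SCR and 2.24 in the controls. HSA32 (AT4G21320) averaged 0.942, 0.873, 0.919 and 1.03 in the same order, highest in the controls. None of the 6 genes was called changed in any pair of groups by limma, where 0.396% to 4.25% of all probe sets tested were called. An unadjusted p under 0.05 was found for 0 to 4 of them. The 4 were reached in BLJ minus JKD and in BLJ minus SCR, where 12.1% and 16.4% of all probe sets tested had such a p. In JKD minus control and SCR minus control it was 1 gene each, against 19.1% and 16.6% of all probe sets, and in BLJ minus control and JKD minus SCR it was 0, against 19.1% and 10.5%. The part of the heat shock genes in the levels of sks15 and sks16 was not tested. Leaving out BLJ 1, BLJ 3 and control 3 could not change the JKD minus SCR differences, which hold none of them. JKD 3 stays in that comparison.

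**Figure D5:**
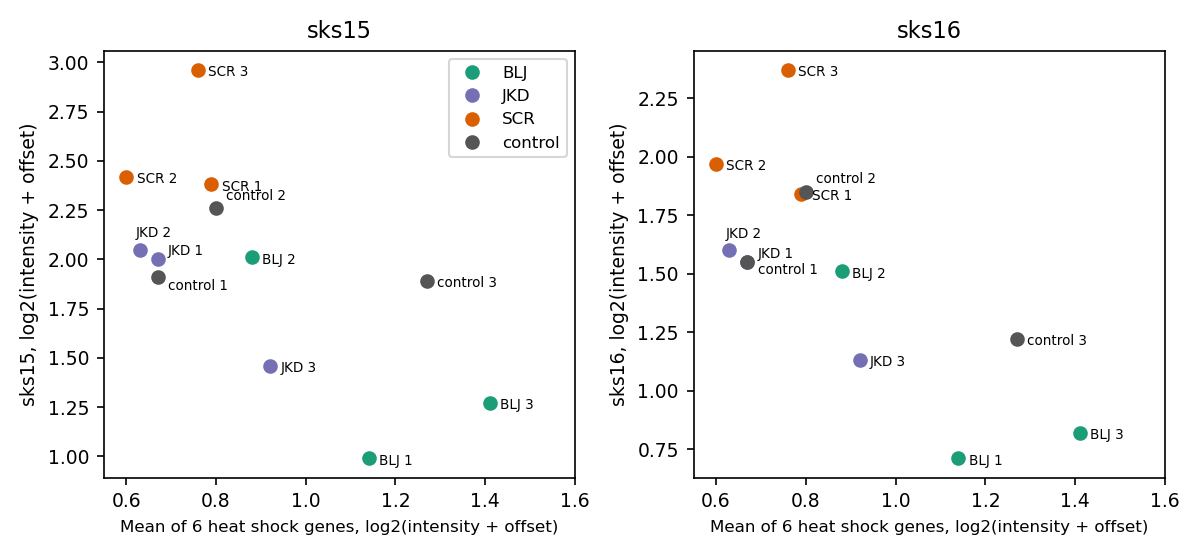
log2(intensity + offset) of sks15 (left) and sks16 (right) against the mean log2 level of 6 heat shock genes, 1 point per array, coloured by line. The 4 arrays farthest to the right are BLJ 1, BLJ 3, control 3 and JKD 3, and they are the 4 lowest for both genes; the points of JKD 1 and control 1 coincide on the right.

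Among the other SKU5-type genes, SKU5 (AT4G12420) was also highest in the SCR line after normalization, and no difference passed the test. Of the 19 genes of the family list, 4 were named on the array: SKU5, sks15, sks16 and sks18; the other members are not analysed here. SKU5 read 6.04, 5.31 and 5.11 on BLJ arrays, 5.70, 5.86 and 5.38 on JKD arrays, 6.55, 7.33 and 7.47 on SCR arrays, and 6.01, 6.13 and 6.10 on the control arrays. All SCR arrays lay above all others. Groups without overlap, in either direction, made up 19.1% of all probe sets tested in SCR minus control, 23.7% in BLJ minus SCR and 20.4% in JKD minus SCR. The BLJ minus SCR difference was -0.34 ± 0.09 (SE) with an adjusted p of 0.0978 in limma, and SCR minus control was 0.20 ± 0.09 with an adjusted p of 0.302. JKD minus SCR was -0.30 ± 0.09 (adjusted p = 0.26 in limma). The remaining pairs were BLJ minus control at -0.13, JKD minus control at -0.10 and BLJ minus JKD at -0.04, with adjusted p of 0.489, 0.62 and 0.943 in limma. The unadjusted p of SKU5 was under 0.05 in BLJ minus SCR and JKD minus SCR, as for 16.4% and 10.5% of all probe sets tested. SKU5 was thus called in 0 of 6 pairs. The share of all probe sets called was 4.25% in BLJ minus control, 2.74% in JKD minus control and 0.396% in SCR minus control. It was 1.71% in BLJ minus JKD, 1.55% in BLJ minus SCR and 0.49% in JKD minus SCR. On the deposited scale SKU5 was higher in each line than in the controls, by 0.39, 0.46 and 0.52 in the BLJ, JKD and SCR lines, so its direction in the BLJ and JKD lines depended on the scaling. Its gaps to the SCR line shrank to -0.13 for BLJ minus SCR and -0.06 for JKD minus SCR on the deposited scale, and to -0.11 and -0.04 with median centring. The deposited ranges of these lines overlapped, as SCR 2 at 5.23 read below every BLJ and JKD array.

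The sks18 probe set (AT1G75790) was dim and fell under the filter on low values, so it was not tested. It averaged 0.66 ± 0.0226 in the BLJ line, 0.667 ± 0.000786 in JKD, 0.645 ± 0.00487 in SCR and 0.71 ± 0.023 in the controls (SD, n = 3 each), and it stood at the 2.36th to 13.2nd percentile of the BLJ, JKD and SCR arrays and at the 29th, 24.8th and 13.6th percentile of the control arrays.

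Other multicopper oxidases gave 1 call. Among the 3 ascorbate oxidase loci, AT4G39830, AT5G21100 and AT5G21105, 0 were called in any of the 6 pairs by limma, and 0 had an unadjusted p under 0.05. Over all probe sets tested, 0.396% to 4.25% were called in these pairs, and 10.5% to 19.1% had such a p. LPR1 (AT1G23010), a ferroxidase known from root growth arrest under low phosphate, averaged 0.821 ± 0.0216 in the JKD line and 0.739 ± 0.0103 in the controls (SD, n = 3 each). This small rise of 0.08 ± 0.02 (SE) passed limma's test (adjusted p = 0.0371), where 0.867% of all probe sets were called higher. JKD minus SCR was 0.09 ± 0.02 (SE) and did not pass (adjusted p = 0.053 in limma). LPR1 read at most 0.839, so the alternative with intensities under 1 set to 1 could not compare it. The call in JKD minus control was lost under 11 of the 19 others, without JKD 1, JKD 3, SCR 1, SCR 3 or any of the control arrays among them. In 9 of the 11 the difference was still 0.07 to 0.08, with an adjusted p of 0.0535 to 0.148 in limma; it was 0.06 with median centring and 0.01 on the deposited scale. LPR2 was not called in any pair, with an unadjusted p of at least 0.106. Of 17 laccases only LAC16 was named on the array, and it fell under the filter.

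Along the chromosome, sks15 lies next to MES9 and sks16 next to MES1, both genes of the methyl esterase family, by the order of protein-coding genes in the RefSeq table. Neither MES gene is named on the array. On the other side of sks15, AT4G37170 averaged between 0.725 and 0.745 in all 4 groups. The gene beyond it, AT4G37180, averaged 1.75 ± 0.0846 in the BLJ line, 1.43 ± 0.0889 in JKD, 1.41 ± 0.0582 in SCR and 1.82 ± 0.112 in the controls (SD, n = 3 each), an order of groups unlike that of sks15. It fell in the JKD line against the controls (-0.24 ± 0.05 SE, adjusted p = 0.0347 in limma), where 1.88% of probe sets were called lower. SCR minus control was of like size and did not pass (-0.25 ± 0.05 SE, adjusted p = 0.0671 in limma). JKD minus SCR was 0.01 (adjusted p = 0.977). The call in JKD minus control was lost under 13 of 20 alternatives. In 11 of these the difference was still -0.35 to -0.21, with an adjusted p of 0.0502 to 0.162 in limma. It was -0.02 on the deposited scale and 0.03 after median centring.

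Genes known as markers of root cell types were set beside the pair. The summed intensity of 4 cortex genes was 4.75 to 4.98 on the BLJ arrays, 4.12 to 4.32 on the JKD arrays, 3.99 to 4.22 on the SCR arrays and 3.51 to 4.10 on the control arrays. Most of the higher BLJ sum came from AT1G09750, which averaged 2.15 ± 0.169 in the BLJ line, 1.75 ± 0.0555 in JKD, 1.59 ± 0.109 in SCR and 1.37 ± 0.33 in the controls (SD, n = 3 each). AT1G09750 (0.47, adjusted p = 0.0163 in limma) and AT3G21670 (0.13, adjusted p = 0.047) were higher in the BLJ line than in the controls, 2 of the 4 genes called, where 4.25% of all probe sets were called. AT3G21670 was also higher in the BLJ line than in JKD (0.18, adjusted p = 0.0179 in limma) and SCR (0.15, adjusted p = 0.0431). The cortex gene AT1G62500 ran the other way without passing the test, at 0.748 ± 0.0104 in the BLJ line and 0.805 ± 0.0155 in SCR (log2 difference -0.06, adjusted p = 0.239 in limma). AT1G62510 averaged between 0.809 and 0.857 in all 4 groups. The summed intensity of the 2 endodermis genes named of 11, AT1G61590 and GSO1, a receptor kinase of the endodermal barrier, was 6.83 to 11.4, 9.85 to 12.6, 7.49 to 10.3 and 9.03 to 11.8 in the BLJ, JKD, SCR and control groups. Over the 12 arrays AT1G61590 stood at the 95.2nd to 97.9th percentile of its own array and GSO1 at the 93.1st to 97.9th. The cortex probe sets stood at the 65.6th to 90.6th (AT1G09750), 51.5th to 74.1st (AT3G21670), 43rd to 57.3rd (AT1G62510) and 25.7th to 49.3rd percentile (AT1G62500), which places each within its array and does not compare RNA levels between genes. For 3 of 8 root hair genes, EXPA7, EXPA18 and GH9C1, the sums were 2.66 to 2.74, 2.28 to 2.35, 2.11 to 2.31 and 2.41 to 3.36 in the same order of groups. The single root cap gene named of 4, AT4G04460, read 0.905 to 1.07, 1.01 to 1.42, 0.825 to 0.934 and 0.932 to 1.42. OPS of the phloem read 0.702 to 0.752, 0.738 to 0.767, 0.77 to 0.85 and 0.781 to 0.916, and BBM of the stem cell niche 0.789 to 0.853, 0.77 to 0.811, 0.833 to 0.954 and 0.859 to 0.926. OPS was called lower in the BLJ line than in the controls (-0.12, adjusted p = 0.0373 in limma), where 4.25% of all probe sets were called. The part of these cell types in the levels of sks15 and sks16 was not tested, and in RNA from sorted pools fewer cells of a type and less RNA per cell cannot be told apart.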

How the data were processed

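The authors' deposited table gives an intensity for each probe set on each array, made with MAS5 per the submitters' processing notes; scaling and centring are not stated there. Deposited intensity values ran from 0.513 to 77.9, with array medians from 0.785 to 0.866. Per the labels' protocols, labelling used 1 or 2 amplification rounds, without saying which array had which.

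Groups and replicate numbers came from the titles. The 22801 probe sets were quantile-normalized and taken to log2(value + 0.702). The 55 control probe sets and the dimmest 30% by mean were left out, and 15922 were tested with limma 3.58.1 in R 4.3.3, with 4 group means, trend and robust moderation and Benjamini-Hochberg adjustment over all probe sets tested, called at an adjusted p under 0.05. No read depth exists; 3 arrays per group limit the precision, and p-values measure the spread between these arrays.

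Names came from the platform's table, updated through RefSeq (TAIR10.1). Of the probe sets that are not controls, 13436 with 1 gene matched RefSeq, 503 had several genes and 8730 are unnamed here. The named genes are sks15, sks16, measured family and multicopper oxidase members, and for each of the pair the 5 highest and 3 lowest of the named probe sets by Pearson's r; the heat shock genes and chromosomal neighbours lie outside that rule. The members and lists were chosen with earlier results of these data known. Same-numbered arrays deviated together in 11 of 18 pairs at r over 0.1, in all 3 for JKD and control. Between replicate 2 arrays r was 0.21 to 0.62, highest for BLJ and control. It was -0.19 to 0.28 between replicate 1 arrays and 0.06 to 0.52 between replicate 3 arrays. The labels name no shared batch. The main fit took no pairing from the replicate numbers. A replicate block was fitted as an alternative for every pair of groups. In JKD minus control the block changed no call reported. Elsewhere AT4G37180 passed only with the block, in SCR minus control (adjusted p = 0.0425 in limma) and in BLJ minus SCR (0.0421). In the main fit these adjusted p were 0.0671 and 0.0699.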

Additional observations from a re-analysis of the deposited data

Results flagged for a closer look

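For 3 genes, every array of one line lay on one side of the control mean and every array of another line on the opposite side. The BLJ and SCR lines opposed each other in this way for sks15, where their differences from the controls were -1.16 apart on the log2 scale, for sks16 (-1.04 apart) and for SKU5 (-0.34 apart). The JKD and SCR lines opposed each other for SKU5 (-0.30 apart). The difference was not tested for sks15 and sks16, and for both the opposition rests on BLJ 2, which lay below the control mean by log2 differences of -0.01 and -0.03. On the deposited scale BLJ 2 lay above it, by 0.36 for sks15 and 0.24 for sks16, so the lines no longer opposed each other in every array. For SKU5, BLJ 1 lay at -0.01 from the control mean. For SKU5, limma's test of the line against line difference gave adjusted p = 0.0978 for BLJ minus SCR and 0.26 for JKD minus SCR. On the deposited scale all lines were higher than the controls in SKU5, by 0.39 (BLJ), 0.46 (JKD) and 0.52 (SCR) on the log2 scale, and the gaps between lines were -0.13 for BLJ minus SCR and -0.06 for JKD minus SCR.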

How the results depend on the processing

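For sks15 and sks16, 85 of 96 values under other scales, filters, offsets and sets of arrays, leaving out single arrays aside, moved by less than the SD within groups. Dropping the filter, the replicate block and fitting the compared groups alone cannot change these differences, and their values are among the 85. The SD, 0.37 for sks15 and 0.33 for sks16, is wide. On the deposited scale it covers -0.60 becoming -0.24 (sks15, BLJ minus control) and -0.11 becoming 0.18 (sks16, JKD minus control). Larger moves came without control 3, BLJ 1 and BLJ 3 together: BLJ minus control became -0.08 (sks15) and -0.19 (sks16), BLJ minus JKD 0.17 and 0.09, and BLJ minus SCR -0.57 and -0.55. They also came with median centring, where sks15 had -0.19 in BLJ minus control and the pair 0.28 and 0.24 in JKD minus control; on the deposited scale, 0.23 for sks15 in JKD minus control; and with intensities under 1 set to 1, -1.39 for sks16 in BLJ minus SCR. The cause was not tested.

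Leaving out single arrays gave, for sks15 and sks16, -0.89 to -0.38 and -0.77 to -0.37 in BLJ minus control, -0.29 to 0.00 and -0.27 to 0.04 in JKD minus control, 0.38 to 0.69 and 0.36 to 0.67 in SCR minus control, -0.71 to -0.20 and -0.66 to -0.26 in BLJ minus JKD, -1.45 to -0.94 and -1.29 to -0.89 in BLJ minus SCR, and -0.86 to -0.56 and -0.74 to -0.48 in JKD minus SCR.

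Counts of all probe sets called by limma depended more on the processing. BLJ minus control had 676, and 2940 on the deposited scale, 2528 with median centring, 167 with intensities under 1 set to 1, 35 with the 6 arrays of the pair, 38 without control 3, BLJ 1 and BLJ 3, and 189 to 798 without single arrays. JKD minus control had 437, and in the same order 4017, 3847, 25, 12, 181 and 8 to 678. Its split of 138 higher and 299 lower became 3120 and 727 with median centring and 2092 and 1925 on the deposited scale, and that of BLJ minus control, 290 and 386, became 1993 and 535, and 1534 and 1406. SCR minus control had 63, and 21 with the floor of 1, 206 with the replicate block, 0 in limma with the 6 arrays of the pair (1987 at an unadjusted p under 0.05), 6 without the 3 arrays and 2 to 272 without single arrays; its 27 higher and 36 lower became 31 and 20 with median centring. BLJ minus JKD had 273, and 529 with the replicate block, 106 without the 3 arrays and 78 to 470 without single arrays. BLJ minus SCR had 247, and 127 with the floor, 643 with the replicate block, 61 without the 3 arrays and 36 to 586; its 155 higher and 92 lower became 278 and 74 with median centring. JKD minus SCR had 78, and 119 on the deposited scale, 143 with the replicate block, 129 with the 6 arrays, 148 without the 3 arrays and 19 to 140; its 49 higher and 29 lower became 89 and 20 with median centring. SKU5 and sks18 were called in 0 of these (SKU5 was tested in all). SKU5 turned its sign in BLJ minus control (0.39 deposited, 0.44 median-centred), in JKD minus control (0.46 and 0.51) and, at 0.00, in BLJ minus JKD without BLJ 3, where leaving out single arrays gave -0.10 to 0.00. AT4G37180 turned in JKD minus control with median centring (0.03). These alternatives for SKU5, LPR1 and AT4G37180, and those for the likeness ranking, were chosen after seeing the data.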
